A study of Bos taurus with 9 samples.

Results

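MEOX2, OSR2, HOXA4, NFIL3, CHD2, PNRC1, IP6K2, RNF19B and SEMA4A are 9 genes that were high in bovine nucleus pulposus cells after 5 h of salt stress. Most of them act on transcription: MEOX2 and HOXA4 are homeobox factors, OSR2 is a zinc finger factor, NFIL3 is a basic leucine zipper factor, CHD2 is a chromatin remodeller and PNRC1 is a nuclear receptor coactivator. The other 3 act elsewhere in the cell. IP6K2 is an inositol hexakisphosphate kinase, RNF19B is a ubiquitin ligase and SEMA4A is a membrane-bound semaphorin. The genes were chosen by their measured rise at 5 h over control on these same arrays, as a group said to come down again by 24 h. They were taken by symbol, with every probe set annotated to one of these symbols and to no other gene, which gave 23 probe sets out of the 24016 probe sets on the array that are not controls. A probe set is a group of short oligonucleotides that are read together as 1 value, and it can match more than 1 transcript. MEOX2, HOXA4 and RNF19B had 1 probe set, and the other 6 genes had several. In each gene probe set 1 is the one with the highest mean over all arrays, and the others are numbered by falling mean.

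Expression was measured on 9 one-colour bovine Affymetrix arrays, 3 from cells kept for 5 h in medium raised with salt to 500 mOsm/kg, 3 from cells kept for 24 h in that medium, and 3 from untreated control cells. All cells were nucleus pulposus cells, the cells of the gel-like centre of the intervertebral disc, cultured from the tail discs of young calves in DMEM with 10% fetal bovine serum. The labels name no genetic change. The study calls the 3 samples of a group biological replicates, but the labels do not say whether they came from different calves. They also give no time for the control cells, so hours in culture and salt exposure cannot be told apart, and every p-value rests on how much these few cultures varied. The treatment had 1 salt level and 2 times, so the course between 5 h and 24 h is not known.

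In vertebrates generally, HOX and MEOX factors set up position and mesodermal patterning in the embryo, and OSR2 acts in limb, palate and joint development. NFIL3 represses genes through the same DNA element that activating clock factors of the PAR family bind, and CHD2 moves nucleosomes at transcribed genes. IP6K2 makes the inositol pyrophosphate that signals in cell death and phosphate balance. Nucleus pulposus cells live in a tissue whose osmolality changes daily with load, because proteoglycans such as aggrecan draw in water and give it up under pressure.

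The values are PLIER intensities on a linear scale, and each array gave a median intensity of 67.1 to 84.5 and a highest value of 13521.7 to 15435.1. Of 13 nucleus pulposus markers 6 were on the array, and they were not alike in level. ACAN, the aggrecan core protein, averaged 1053 at 5 h, 2995 at 24 h and 1261 in control cells. The cadherin CDH2 averaged 2006, 1387 and 1638 in the same groups. The collagen COL2A1 was lower, at 121.3, 130.3 and 182.2, and read only 29.1 to 40.0 on the arrays numbered 3. KRT8, KRT18 and KRT19, keratins used as nucleus pulposus markers, had group means of only 5.20 to 21.4, near the bottom of the scale. Some markers of other cell types moved with time. Of 8 leukocyte markers 7 were on the array, and their summed intensity was 216.6 to 232.4 at 5 h, 406.8 to 442.3 at 24 h and 212.1 to 230.3 in control cells. Of these CD14, a receptor of monocytes, was the one called at 24 h, with means of 72.8, 285.6 and 95.6 in that order (limma, adjusted p = 0.0054), whereas the pan-leukocyte marker PTPRC was not called and stood near the bottom of the scale at 16.9, 26.7 and 14.6. CSF1R was instead highest at 5 h, with means of 33.2, 16.9 and 14.8. CD68 averaged 42.1, 44.6 and 42.6, and CD3E 43.4, 41.4 and 39.4. The dim ITGAM averaged 3.83, 2.53 and 3.37, and CD79A 11.9, 10.4 and 8.6. The higher leukocyte sum at 24 h was thus largely CD14. The skeletal muscle markers summed to 1190 to 3421 at 5 h, 2172 to 3510 at 24 h and 941 to 1092 in control cells. This was largely through CKM, which averaged 2249, 2652 and 641.4 and was called at 24 h (limma, adjusted p = 0.0315). Of the other markers ACTA1 went the other way at 24 h, with means of 343.5, 198.4 and 306.7. The dim MYOG averaged 35.5, 33.0 and 26.2, DES 23.0, 30.6 and 23.2, and the muscle regulator MYOD1 3.3, 1.43 and 6.27. The epidermal pair KRT5 and KRT14 summed to 377 to 477.2 at 5 h, 593.9 to 712.4 at 24 h and 424.1 to 451.2 in control cells. KRT5 made up nearly all of this sum, with means of 419.2, 623.1 and 433.6. KRT14 averaged 11.6, 10.5 and 7.23, near the bottom of the scale. Among the fibroblast markers COL12A1, a collagen of tendon and annulus, averaged 1343, 3603 and 1097 and THY1 averaged 136.6, 225.3 and 129, and both were called higher at 24 h (limma, adjusted p = 0.0033 and 0.037). The sum of the fibroblast list overlapped between the groups, as COL1A2 makes up most of it, and the sums of the endothelial and erythroid markers overlapped too. Single endothelial markers went both ways. CLDN5 averaged 45.4, 20.7 and 41.2, with every 24 h array below every control array. TEK averaged 13.8, 29.7 and 16.1, and its 24 h and control arrays overlapped. The part of all these markers in the results below was not tested. In RNA from whole cultures a change in the mix of cells and a change in RNA per cell cannot be told apart. The arrays numbered 3 stood apart from those numbered 1 and 2 in every group, and samples with the same number shared their deviations. So 24 h results of the chosen genes whose call changed with the replicate number as a block are given with that value. For related genes the counts are given both ways. Block values are not listed for the markers and the genes of similar profile, and some of these changed their call. At 24 h ACAN had an adjusted p of 0.187 without the block and 0.00041 with it (limma), and KRT5 0.072 and 0.0043. CLDN5 had 0.0783 and 0.0041 at 24 h, and TEK 0.221 and 0.0153. For CKM at 5 h these were 0.277 and 0.0101, and for ETS2 at 24 h 0.481 and 0.017.

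Since that choice used the level at 5 h, the 5 h values are given as a description and with no test, and the same holds for the drop between 5 h and 24 h. Among genes whose highest-mean probe set was called higher at 5 h, lay above every control array and was at least as bright at 5 h as the median probe set, the 9 genes hold places 4 to 12 by size of the difference on the scale used. PNRC1 is the last of them at 1.05, and JMJD6, at 0.99, and SLC38A2, at 0.88, lie just outside. These and all differences below are on the scale of log2(intensity + 16), which understates the change of dim probe sets. The test is limma with Benjamini-Hochberg adjustment over the 18012 probe sets whose mean lay at or above the 25th percentile, with an adjusted p under 0.05 as the threshold for a call. For the 9 genes it is read only for 24 h against control, which shares its control arrays with the choice. The word transient, under which the genes were grouped, already looks at the 24 h arrays, so a missing call there is no independent result. Of the 23 probe sets, 21 passed the limit on mean intensity; CHD2 probe set 5 and PNRC1 probe set 4 did not. SEMA4A probe set 1 and OSR2 probe set 3 passed it through their 5 h arrays.

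All 9 genes had every 5 h array above every control array in their highest-mean probe set, where 4.04% of all tested probe sets did, and this is the choice itself. At 24 h, 6 of the 9 (OSR2, HOXA4, CHD2, PNRC1, IP6K2 and RNF19B) still had every array above every control array, against 13.9% of all tested probe sets, and 8 of the 9 had every 24 h array below every 5 h array (14.3%). The exception is RNF19B. The share of the 5 h difference left at 24 h ran from none in SEMA4A and 12.5% in NFIL3 to 45.1% in PNRC1, 48.8% in IP6K2 and 50.7% in HOXA4, and RNF19B was higher at 24 h than at 5 h.

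**Figure D1:**
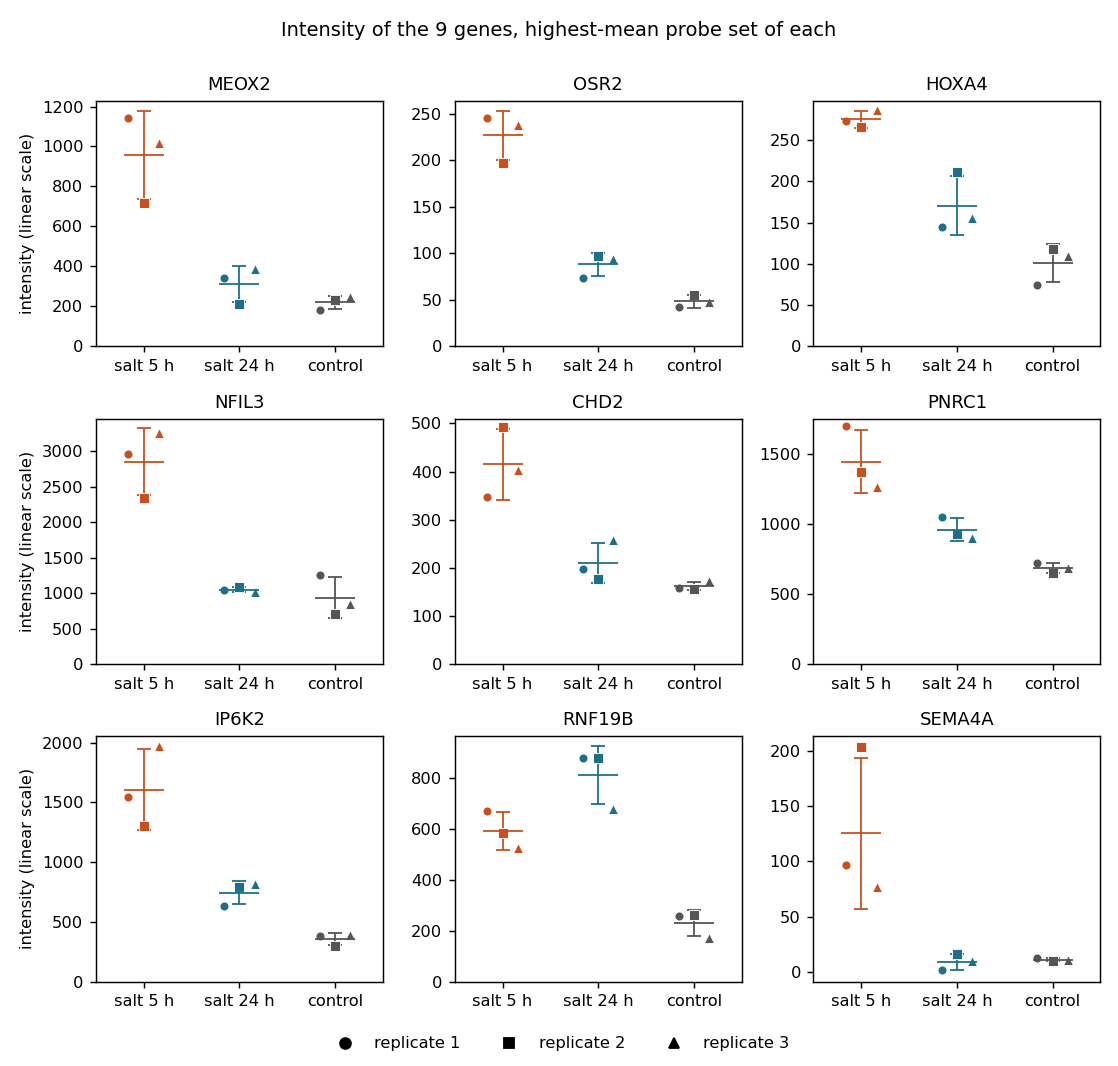
Intensity (linear axis that includes 0) of the highest-mean probe set of each of the 9 genes on every array, with the salt 5 h, salt 24 h and control groups from left to right; points are arrays, their shape gives the replicate number, and dashes with bars are group means with SD. The 5 h arrays of MEOX2 sit between 715.6 and 1143, against 184.5 to 244.7 in control cells, and RNF19B is the gene whose 24 h arrays, at 678.3 to 877.3, all lie above its 5 h arrays.

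MEOX2, a mesodermal homeobox factor that restrains cell growth in vascular cells, had intensities of 1143, 715.6 and 1015.8 at 5 h, 342.4, 210.6 and 385.0 at 24 h and 184.5, 233.4 and 244.7 in control cells. Every 5 h array stood far above all others, whereas the 24 h and control arrays overlapped. The means were 958.1 ± 219.5 at 5 h, 312.7 ± 90.9 at 24 h and 220.9 ± 32.0 in control cells (SD, n = 3 each), a 4.34-fold level at 5 h and 1.42-fold at 24 h. The log2 difference from control was 2.02 (SE 0.26) at 5 h and 0.44 at 24 h, so that 21.8% of the 5 h difference was left. The 24 h difference was not called (limma, adjusted p = 0.374, 95% interval -0.15 to 1.03).

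OSR2, a zinc finger factor of limb and joint development, gave 245.9, 197.2 and 238.0 at 5 h, 73.6, 96.7 and 94.2 at 24 h and 42.2, 55.8 and 47.9 in control cells in probe set 1. The 3 groups did not overlap, with the 24 h arrays between the other two. The mean was 4.67-fold that of control cells at 5 h and 1.81-fold at 24 h, from 227.0 ± 26.1, 88.2 ± 12.7 and 48.6 ± 6.83 (SD, n = 3 each) at 5 h, at 24 h and in control cells. The log2 difference at 24 h was 0.69 (SE 0.18), and it passed the test narrowly (limma, adjusted p = 0.0475). That call held in only 1 of the 9 fits that left out 1 array, with adjusted p up to 0.125; leaving out the 5 h array numbered 2 was the one that kept it.

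The other OSR2 probe sets are dim and do not move alike in the 3 cultures. Probe set 2 had 60.0, 55.5 and 18.5 at 5 h, 39.2, 27.7 and 19.1 at 24 h and 17.7, 29.6 and 16.4 in control cells. Probe set 3 had 64.4, 62.9 and 7.1 at 5 h, 17.9, 17.5 and 4.7 at 24 h and 7.2, 14.3 and 4.4 in control cells. In both, the arrays numbered 1 and 2 were high at 5 h and the array numbered 3 was not: its 5 h minus control difference was 0.09 for probe set 2 and 0.18 for probe set 3, against 0.65 to 1.79 in the other 2 cultures. In probe set 1 the third culture was as high as the others.

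HOXA4, a homeobox gene of the HOXA cluster, had 272.6, 265.9 and 286.5 at 5 h, 144.1, 211.3 and 155.7 at 24 h and 74.9, 118.3 and 109.2 in control cells. The 5 h arrays lay close together, and the 24 h arrays lay between them and the control arrays without overlap. The means were 275.0 ± 10.5, 170.4 ± 35.9 and 100.8 ± 22.9 at 5 h, at 24 h and in control cells (SD, n = 3 each), or 2.73-fold and 1.69-fold that of control cells at the 2 times. The log2 difference was 1.34 (SE 0.21) at 5 h and 0.68 at 24 h, which leaves 50.7% of it. The 24 h difference was not called without the block (limma, adjusted p = 0.0829) and was called with the replicate number as a block (adjusted p = 0.00587).

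NFIL3, a repressor of the basic leucine zipper family, stood near control again at 24 h. Probe set 1 had 2969, 2336.9 and 3263.2 at 5 h, 1050.5, 1084 and 1016.6 at 24 h and 1255.8, 703.8 and 853.6 in control cells. The 24 h arrays fell inside the range of the control arrays. The means were 2856 ± 473.3 at 5 h, 1050 ± 33.7 at 24 h and 937.7 ± 285.5 in control cells (SD, n = 3 each), so the gene stood 3.05-fold above control at 5 h and 1.12-fold at 24 h. The log2 difference at 24 h was 0.20 (95% interval -0.28 to 0.68, limma, adjusted p = 0.669), which is 12.5% of the 1.62 (SE 0.21) at 5 h.

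NFIL3 probe set 2 showed the same shape. It had 632.6, 482.4 and 394.1 at 5 h, 181.7, 188.5 and 98.2 at 24 h and 222.5, 136.0 and 101.9 in control cells. Its 5 h difference was 1.65 (SE 0.33), and 2.25% of it was left at 24 h. The profiles of the pair over the 9 arrays had a correlation of 0.92, given as a description.

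CHD2, a chromodomain helicase that remodels nucleosomes, had 5 probe sets. Probe set 1 had 348.1, 493.0 and 403.9 at 5 h, 197.4, 176.0 and 256.8 at 24 h and 157.6, 156.3 and 171.7 in control cells. All 24 h arrays lay above all control arrays and below all 5 h arrays. The means were 415.0 ± 73.1, 210.1 ± 41.9 and 161.9 ± 8.54 at 5 h, at 24 h and in control cells (SD, n = 3 each), 2.56-fold and 1.30-fold that of control cells. The difference was 1.26 (SE 0.19) at 5 h, and that of 0.33 at 24 h was not called (limma, adjusted p = 0.365).

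Probe sets 2 and 3 of CHD2 ran alongside it, with 5 h differences of 0.98 and 1.20 and 24 h differences of 0.29 and 0.31. Probe set 4 had 66.2, 71.4 and 120.8 at 5 h, 60.1, 70.9 and 116.3 at 24 h and 40.9, 61.7 and 66.6 in control cells. It was thus about as high at 24 h, at 0.42, as at 5 h, at 0.48, and the 24 h difference was called only with the replicate block (adjusted p = 0.039, against 0.449 without it). Probe set 5, below the limit on mean intensity, had 6.5 to 17.8 at 5 h, 10.7 to 23.2 at 24 h and 6.3 to 29.8 in control cells, and the groups overlapped. The correlations of probe sets 2, 3, 4 and 5 with probe set 1 over the 9 arrays were 0.82, 0.90, 0.54 and -0.02.

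PNRC1, a proline-rich coactivator of nuclear receptors that also binds the mRNA decapping machinery, had the smallest 5 h difference of the 9 genes, with the smallest SE. Probe set 1 had 1698.2, 1372.1 and 1262.8 at 5 h, 1050.7, 925.8 and 899.6 at 24 h and 722.2, 648.2 and 685.9 in control cells. The groups did not overlap, with the 24 h arrays in between. The means were 1444 ± 226.5, 958.7 ± 80.7 and 685.4 ± 37.0 at 5 h, at 24 h and in control cells (SD, n = 3 each), 2.11-fold and 1.40-fold that of control cells. The log2 difference was 1.05 (SE 0.14) at 5 h and 0.47 at 24 h (95% interval 0.15 to 0.80). The 24 h difference was not called without the block (limma, adjusted p = 0.0787) and was called with it (adjusted p = 0.00403).

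PNRC1 probe sets 2 and 3 repeated this closely: 1.0 and 0.99 at 5 h, and 0.49 and 0.46 at 24 h. At 24 h neither was called without the block (adjusted p = 0.190 and 0.148), and both were with it (adjusted p = 0.0112 and 0.00972). Their correlations with probe set 1 over the 9 arrays were 0.93 and 0.98. Probe set 4 read 8.1 or less on every array, at the bottom of the scale.

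IP6K2, an inositol hexakisphosphate kinase, has 4 probe sets that disagreed in time course. In probe set 1 the intensities were 1548, 1301.2 and 1970.5 at 5 h, 631.1, 789.5 and 816.2 at 24 h and 383.0, 298.2 and 390.9 in control cells. Every 24 h array lay between the other groups. The means were 1607 ± 338.5, 745.6 ± 100.1 and 357.4 ± 51.4 at 5 h, at 24 h and in control cells (SD, n = 3 each), 4.50-fold and 2.09-fold that of control cells. At 24 h the gene stayed higher than control by 1.03 (SE 0.19; limma, adjusted p = 0.0174), 48.8% of the 5 h difference. Without control array 2 this was 0.91 (adjusted p = 0.073) and without 24 h array 2 it was 0.98 (adjusted p = 0.0558), and in the other 7 fits that left out 1 array the call held.

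Probe set 3 followed probe set 1, with 317.3, 286.0 and 350.6 at 5 h, 209.6, 219.0 and 168.9 at 24 h and 136.4, 89.4 and 100.1 in control cells. Its 24 h difference of 0.80 passed the test (limma, adjusted p = 0.0397), and it held in 2 of the 9 fits without 1 array, with adjusted p up to 0.148. Probe set 2 had its highest values at 24 h: 344.0, 182.2 and 365.0 at 5 h, 563.2, 523.1 and 536.2 at 24 h and 203.1, 186.0 and 219.4 in control cells. The 24 h arrays lay above all others, and the 5 h arrays overlapped with the control arrays.

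For probe set 2 the means were 297.1 ± 100, 540.8 ± 20.5 and 202.8 ± 16.7 at 5 h, at 24 h and in control cells (SD, n = 3 each), 1.47-fold and 2.67-fold that of control cells. The 24 h difference was 1.35 (SE 0.24; limma, adjusted p = 0.0152). It was not called without control array 2 (1.29, adjusted p = 0.0667) or without 24 h array 1 (1.32, adjusted p = 0.0673). Probe set 4 had the same order with more spread, 162.5, 86.9 and 85.9 at 5 h, 323.4, 408.5 and 103.6 at 24 h and 104.1, 116.6 and 58.8 in control cells. Its 24 h difference of 1.28 (SE 0.47) was not called without the block (limma, adjusted p = 0.137) and was called with it (adjusted p = 0.00554).

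Set within each array, the log2 ratio of probe set 2 to probe set 1 was -2.73 to -2.12 at 5 h, -0.59 to -0.16 at 24 h and -0.86 to -0.64 in control cells, so the 5 h arrays lay apart from the others. For probe set 4 the ratio was -4.29 to -3.13 at 5 h, -2.80 to -0.92 at 24 h and -2.44 to -1.24 in control cells. For probe set 3 it was -2.44 to -2.12 at 5 h, -2.17 to -1.52 at 24 h and -1.81 to -1.39 in control cells. Correlations with probe set 1 over the 9 arrays were 0.35 for probe set 2, 0.96 for probe set 3 and 0.05 for probe set 4. The 2 pairs of probe sets therefore gave unequal time courses for 1 gene symbol. Which transcripts they measure was not tested, as probe sequences were not used here. The log2 ratio of 3' to 5' signal in the actin control probe sets was 2.68 ± 0.28 at 5 h and 2.99 ± 0.28 at 24 h. In control cells it was 2.69 ± 0.18 (SD, n = 3 each). For the GAPDH control probe sets the means were 0.006, 0.025 and -0.084 in these groups. Whether RNA length bears on the probe sets here was not tested.

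**Figure D2:**
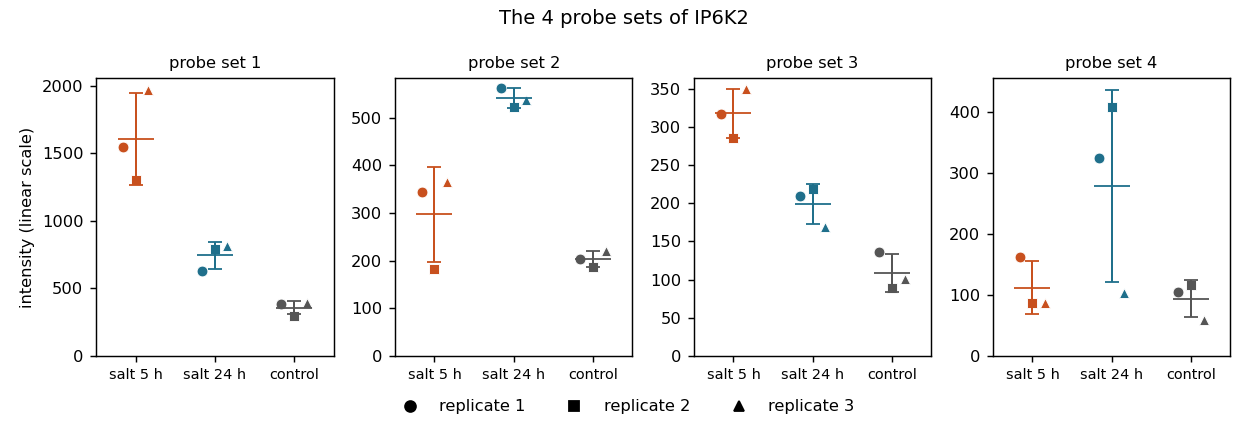
Intensity of the 4 IP6K2 probe sets on every array, on a linear axis from 0 of its own for each probe set, with the salt 5 h, salt 24 h and control groups from left to right; points are arrays and dashes with bars are group means with SD. Probe sets 1 and 3 are highest at 5 h, with 1301.2 to 1970.5 in probe set 1, and probe set 2 is highest at 24 h, with 523.1 to 563.2.

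RNF19B, a ubiquitin ligase with a RING-between-RING domain, goes against the description as transient. It had 669.6, 582.0 and 521.9 at 5 h, 874.8, 877.3 and 678.3 at 24 h and 257.6, 260.2 and 171.6 in control cells. All salt arrays lay above all control arrays, and all 24 h arrays lay above all 5 h arrays. The means were 591.2 ± 74.3, 810.1 ± 114.2 and 229.8 ± 50.4 at 5 h, at 24 h and in control cells (SD, n = 3 each), 2.57-fold and 3.53-fold that of control cells. The difference was 1.32 (SE 0.20) at 5 h and 1.76 at 24 h (SE 0.20, 95% interval 1.30 to 2.22; limma, adjusted p = 0.0039). It is the one member whose 24 h call held in all 9 fits that left out 1 array, with a highest adjusted p of 0.0259.

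SEMA4A, a class 4 semaphorin that signals to plexins and immune receptors, had signal well above the bottom of the scale at 5 h alone. Probe set 1 had 96.6, 203.3 and 76.6 at 5 h, 1.3, 15.9 and 9.5 at 24 h and 12.3, 10.3 and 10.4 in control cells. The 5 h arrays lay above all others, and the 24 h arrays overlapped with those of control cells. The means were 125.5 ± 68.1, 8.90 ± 7.32 and 11 ± 1.13 at 5 h, at 24 h and in control cells (SD, n = 3 each). The log2 difference was 2.29 (SE 0.33) at 5 h and -0.16 at 24 h (95% interval -0.90 to 0.58; limma, adjusted p = 0.863). Its control values lie near the bottom of the scale, so the 5 h difference depends on the pseudocount: it was 3.27 with a pseudocount of 1 and 1.28 with 64. The fold of means, 11.4 at 5 h, has the same limit.

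SEMA4A probe set 2 had 42.5, 61.5 and 27.4 at 5 h, 13.6, 23.9 and 25.7 at 24 h and 11.7, 34.6 and 16.4 in control cells. The 5 h difference was 0.71 and the 24 h difference was 0.04, and the 5 h and control arrays overlapped. Its profile correlated with that of probe set 1 at 0.82 over the 9 arrays.

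**Figure D3:**
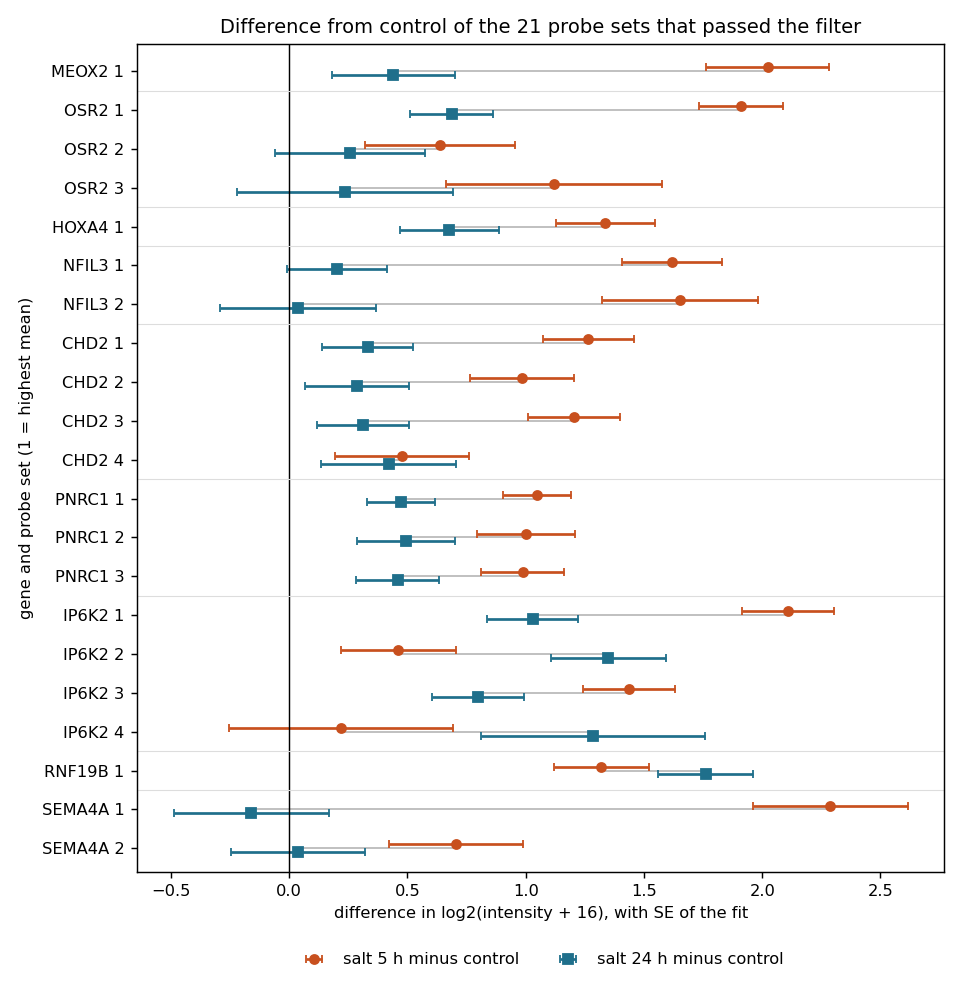
Difference from control in log2(intensity + 16), with the SE of the fit as bars, of the 21 probe sets of the 9 genes that passed the limit on mean intensity, at 5 h (circles) and 24 h (squares). The 5 h differences run from 0.22 in IP6K2 probe set 4 to 2.29 in SEMA4A probe set 1, and the 24 h differences exceed those at 5 h in RNF19B and in IP6K2 probe sets 2 and 4.

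Over the 21 tested probe sets the median difference from control was 1.20 at 5 h and 0.44 at 24 h, where the medians of all tested probe sets were -0.03 and 0.02. At 5 h 11 of the 21 were called higher, with 0.233% of all tested probe sets called higher and 0.250% called lower, and nothing is read from this count because the choice used it. With the replicate block these shares of all probe sets were 2.45% and 3.41%. At 24 h 5 of the 21 (23.8%), in 3 of the 9 genes, were called higher, with 4.28% of all tested probe sets called higher and 4.32% lower, and no member probe set was called lower at either an adjusted or an unadjusted p under 0.05. The 5 are RNF19B, IP6K2 probe sets 1, 2 and 3 and OSR2 probe set 1. With the replicate number as a block 11 of the 21 were called higher (52.4%), with 18.3% of all tested probe sets called higher and 17.5% lower. The count fell to 1 without control array 2 and to 2 without either of the 24 h arrays 1 and 2, and was 3 without control array 3, 5 h array 1 or 5 h array 3. The members share their source cells and arrays, so neither count is a test over the genes.

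Across the 9 arrays the highest-mean probe sets of the genes moved alike, as their choice fixes in part. The 28 pairs without RNF19B had correlations of 0.76 to 0.96 with a median of 0.90, highest for OSR2 with IP6K2. The 8 pairs with RNF19B had 0.20 to 0.67 with a median of 0.50, lowest for SEMA4A. The 9 arrays fall into 3 groups, so these values describe mainly the group means.

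**Figure D4:**
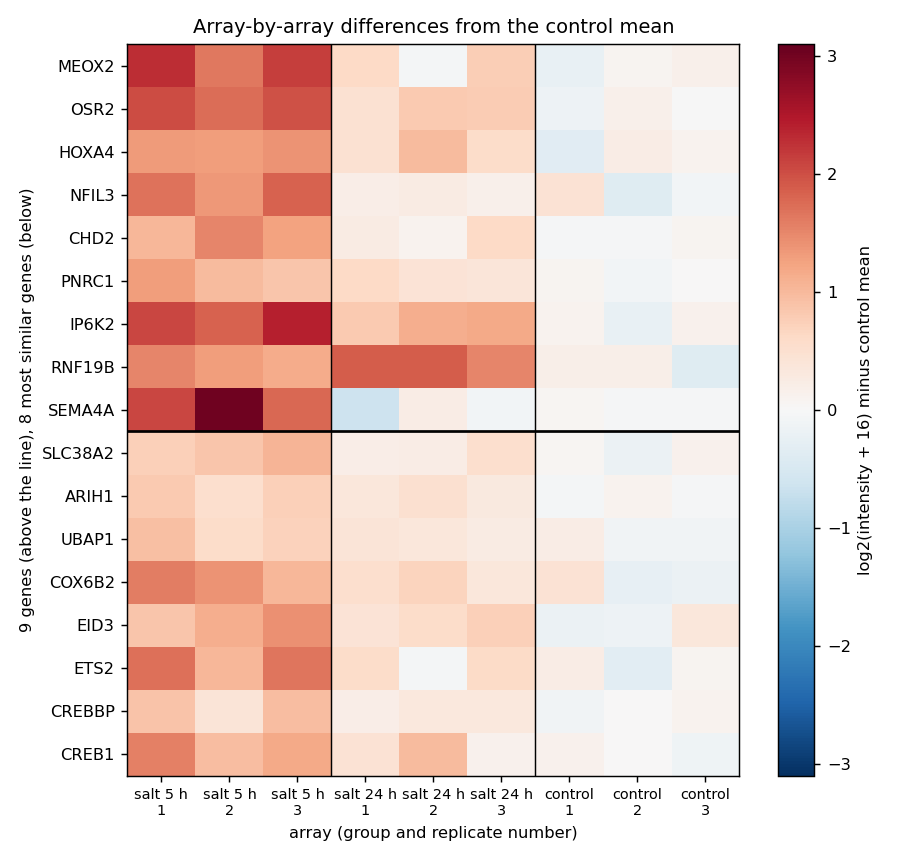
Colour map of log2(intensity + 16) relative to the mean of control cells, in each of the 9 arrays, for the highest-mean probe sets of the 9 genes and the 8 genes most like them; columns run from salt 5 h through salt 24 h to control, and the colour scale is in log2 units. The mean over the 5 h columns is the highest of the groups in every row except RNF19B, where that over the 24 h columns is.

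Of 6236 genes compared, the 8 most like the mean profile of the members over the 9 arrays were SLC38A2 (r = 0.94), ARIH1 (0.94), UBAP1 (0.92), COX6B2 (0.92), EID3 (0.90), ETS2 (0.90), CREBBP (0.90) and CREB1 (0.90). This likeness is a description over 9 arrays from 3 groups. SLC38A2, an amino acid transporter known to respond to hypertonic medium, averaged 11600 at 5 h, 7845 at 24 h and 6308 in control cells, and differed from control by 0.88 and 0.31 on the log2 scale. ETS2, a transcription factor downstream of growth factor signalling, averaged 896.5, 409.1 and 311.0 in these groups, with differences of 1.47 and 0.37. The list also holds CREB1, a factor that binds cAMP response elements, and its coactivator CREBBP. CREB1 differed by 1.23 at 5 h and 0.52 at 24 h, and CREBBP by 0.75 and 0.29. With the replicate means removed, 5 of the 8 remained among the 8 most like the members; ARIH1, CREB1 and CREBBP did not.

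Genes related to the 9 by family or pathway were read in the same way. From 8 lists of related genes, 99 passed the limit on mean intensity and were each read by their highest-mean probe set. At 5 h 1 of the 99 was called (1.01%, against 0.250% of all tested probe sets called lower), and it fell: BHLHE40, a clock-linked repressor, averaged 294.1 at 5 h, 878.6 at 24 h and 931.0 in control cells (log2 difference -1.64, SE 0.27; limma, adjusted p = 0.0409). At an unadjusted p under 0.05, 5 were higher and 3 lower. The share of all tested probe sets at that threshold is not given here, so nothing is read from this count. The BHLHE40 call was lost in 8 of the 9 fits that left out 1 array, all but the one without 5 h array 2, with adjusted p up to 0.212. With the replicate block 6 were called higher (6.06%, against 2.45% of all tested probe sets) and 2 lower (2.02%, against 3.41%) at 5 h. The median 5 h difference was 0.08 in 9 HOX genes, 0.08 in 6 mesenchymal patterning factors, -0.12 in 9 clock and PAR factors, 0.05 in 19 chromatin remodellers, 0.07 in 14 coactivators and decapping factors, -0.04 in 19 inositol phosphate genes, -0.03 in 13 ubiquitin ligases of the RING-between-RING kind and their partners, and -0.15 in 10 semaphorins and receptors.

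At 24 h 7 of the 99 related genes were called higher (7.07%, against 4.28% of all tested probe sets) and 1 lower (1.01%, against 4.32%), and their median difference was 0.14. HOXB3, a HOX gene, rose by 2.24 (SE 0.43; limma, adjusted p = 0.0182) and averaged 39.7 at 5 h, 235.2 at 24 h and 36.4 in control cells. SEMA6A, a transmembrane semaphorin, rose by 2.44 (SE 0.46; limma, adjusted p = 0.017), with means of 37.8, 122.9 and 8.33 in those groups. The homeobox factor MSX1 rose by 0.56 and the nuclear receptor RORA by 0.69. In the inositol list ITPR1, a calcium channel gated by inositol trisphosphate, rose by 0.72, the phospholipase PLCG1 by 0.66 and the inositol monophosphatase IMPA2 by 0.56. SMARCA4, the ATPase of a SWI/SNF complex, fell by 0.63 on the log2 scale (limma, adjusted p = 0.0318). All 8 calls were lost without control array 2, with adjusted p of 0.0632 to 0.159, and without 24 h array 1. The count was 1 without control array 3, 2 without 24 h array 2, 4 without 24 h array 3 and 5 without 5 h array 1.

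The medians of the lists at 24 h were 0.28 in HOX genes, 0.08 in patterning factors, 0.02 in clock and PAR factors, 0.14 in chromatin remodellers, 0.05 in coactivators and decapping factors, 0.21 in inositol phosphate genes, 0.23 in the ubiquitin ligases and 0.15 in semaphorins and receptors. With the replicate number as a block 29 of the 99 were called higher (29.3%, against 18.3% of all tested probe sets) and 12 lower (12.1%, against 17.5%) at 24 h. The closest relatives measured were HLF, HOXA5, CHD1, PNRC2, IP6K1 and RNF19A. Their differences ran from -0.22 in RNF19A to 0.22 in CHD1 at 5 h and from -0.35 in CHD1 to 0.47 in HOXA5 at 24 h, with SEs of 0.17 to 0.99. By limma none of the 6 passed at either time, also at an unadjusted p under 0.05, and with the replicate block 3 of them, HOXA5, CHD1 and RNF19A, passed at 24 h.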

How the data were processed

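RNA from 9 cultures was hybridised to 9 bovine Affymetrix arrays. The deposited intensity values are linear PLIER signals. The authors ran Affymetrix Expression Console, as the submitters' processing notes name it, and its version and options are not given here. Of 24128 rows, 112 control probe sets were left out. Of the other 24016, 13292 carry 1 gene symbol in the platform annotation, 86 carry several and 10638 are not listed; 3620 values are exactly 0.

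Values were used as deposited and tested as log2(intensity + 16) with limma 3.58.1 in R 4.3.3 (lmFit, eBayes with a trend, 1 fit of all 9 arrays without a block). Probe sets with a mean log2 value under the 25th percentile (5.05) were left out. The number of arrays limits the precision. The procedure was tested on simulated data with independent noise on each array. That simulation left out the deviations shared by same-numbered arrays, so it does not show how the test behaves with them.

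The genes and the lists of related genes and markers were chosen with earlier results of these data known. Named genes are all 9 members, the closest relatives, up to 4 called genes of each related list in each comparison with control, and the 8 genes with the most similar profile. Replicate numbers are taken from the labels. Same-numbered arrays of different groups deviated together from their group means (9 correlations, 0.5643 to 0.8964), and different-numbered arrays did so less (18 correlations, -0.7799 to 0.5449), so the numbers were taken to pair the samples. Alternatives covered the pseudocount, the filter, scaling, the block, the trend and left-out arrays. Reference promoter sequences were not used here.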

Additional observations from a re-analysis of the deposited data

Results flagged for a closer look

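The results here stood out because the effect of salt at 24 h differed from that at 5 h by a test of that difference itself, 24 h minus 5 h, in limma with adjustment over all tested probe sets. Among the related genes the difference was positive for HOXB3 (2.32, adjusted p = 0.0114), BHLHE40 (1.55, adjusted p = 0.0089), ITPR1 (0.97, adjusted p = 0.0053), RORA (0.81, adjusted p = 0.0184), PLCG1 (0.71, adjusted p = 0.0077), MSX1 (0.60, adjusted p = 0.0134) and IMPA2 (0.53, adjusted p = 0.038). It was negative for SMARCA4 (-0.80, adjusted p = 0.0104). These genes were listed because they were called against control, so the set is not a sample of the related genes. The test reuses the salt arrays on which those calls rest, so its p-values are no independent result. Of the 99 related genes 12 were called higher and 2 lower for 24 h minus 5 h. Some of these are not named above, such as SEMA6D (1.71) and SMARCA5 (-0.64). Of all 18012 tested probe sets 2551 were called for 24 h minus 5 h, in both directions together.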

How the results depend on the processing

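The difference from control at 5 h kept its sign in every tested member probe set, under every setting run, but for IP6K2 probe set 4, which ran from -0.050 to 0.38 with 1 array left out. Its size moved by more than 1 SD between replicates in 6 probe sets with a pseudocount of 64, in 3 with a pseudocount of 1 and in 3 genes with the median over their probe sets: with that median it was 0.95 for IP6K2, 1.12 for OSR2 and 1.5 for SEMA4A, against 2.11, 1.91 and 2.29 in their first probe sets. The number of probe sets called was 87 at 5 h, 1550 at 24 h and 2551 for 24 h minus 5 h. With the replicate number as a block, the pairing of samples, it was 1056, 6452 and 7884, and 11 in place of 5 member probe sets were called at 24 h; 8 in place of 1 related genes were called at 5 h and 41 in place of 8 at 24 h. Fitting only the 6 arrays compared gave 13 at 5 h and 792 at 24 h, with 3 member probe sets and 4 related genes at 24 h and 0 related genes at 5 h. Centring each array on its median gave 57 probe sets and 0 related genes at 5 h, and 3 member probe sets at 24 h. Using no filter gave 3 member probe sets at 24 h. The 3 arrays numbered 3 were also left out, an alternative chosen after seeing the data. This gave 69 probe sets at 5 h, 1664 at 24 h and 3375 between the times. It also gave 5 member probe sets at 24 h and 0 related genes at 5 h. Leaving out 1 array gave 15 to 126 probe sets at 5 h, 304 to 1533 at 24 h and 854 to 2429 between the times. It also gave 1 to 5 member probe sets at 24 h, and 0 to 3 related genes at 5 h and 0 to 9 at 24 h.

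Some small differences changed sign. For NFIL3 probe set 2 at 24 h the value was -0.032 with centring, -0.017 with quantile normalization and -0.19 to 0.31 with 1 array left out. For SEMA4A probe set 2 at 24 h it was -0.030, -0.0010 and -0.14 to 0.29 in the same settings, and -0.12 without the arrays numbered 3; for SEMA4A probe set 1 it was -0.36 to 0.080 with 1 array left out. CHD2 probe set 4 ran from -0.29 to 0.17 for 24 h minus 5 h. Taking the median of the 4 IP6K2 probe sets turned 24 h minus 5 h to 0.13. The cause was not tested. Dim probe sets limit SEMA4A and OSR2 probe sets 2 and 3. The promoter motif description was not run.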
